A study of Mus musculus with 12 samples.

Results

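The genes described here are those whose symbols begin with Hnrnp (or the older Hnrp), Srsf (or Sfrs) or Snrp, the core families of nuclear RNA processing. They numbered 43 of the 14177 genes listed for cultured sensory neurons, and comprised 20 hnRNP genes, 11 SR protein genes and 12 snRNP genes. Members were chosen by symbol, and no measured value entered the rule, although earlier results of these data were known when they were chosen. Heterogeneous nuclear ribonucleoproteins (hnRNPs) coat nascent transcripts, often repress the use of exons, and in neurons several of them travel with mRNA into axons and dendrites. SR proteins carry arginine-serine repeats and RNA recognition motifs, bind enhancer sequences in exons and recruit the splicing machinery. Small nuclear ribonucleoproteins (snRNPs) are the subunits of the spliceosome, and in the snRNPs U1, U2, U4 and U5 the snRNA is held in a ring of Sm proteins encoded by the Snrpb, Snrpd, Snrpe, Snrpf and Snrpg genes.

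RNA was sequenced from neurons of the dorsal root ganglia (DRG), collected from all ganglia of male mice, purified on Percoll and kept in culture for 24 h. The labels give an age of 3 to 6 months, whereas the methods of the study name a younger age in weeks for its RNA-seq mice. All mice were Rpl22HA/HA, so that Cre recombination puts an HA tag on the ribosomal protein Rpl22, and HA immunoprecipitation then pulls down ribosomes with their mRNA (RiboTag). Runx3-Cre, active where the proprioceptor transcription factor Runx3 is expressed, was present in the group labelled Cre+ and absent from its Cre- littermates, which served as the control for background. For each genotype label 3 pull-downs and 3 inputs (10% of the lysate) were sequenced, 12 libraries in all, and the neurons of 5 mice were pooled for each sample, so that p-values measure the spread between pools. The comparisons asked which member mRNAs were more or less abundant in the pull-downs than in the inputs of the same label. They also asked whether that ratio differed between the genotype labels. In such bulk samples, fewer cells of a type and less RNA per cell cannot be told apart.

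The labels and the libraries did not match at the gene that drives Cre. Runx3 stood at 22.8, 2.07 and 11.1 normalized counts (counts scaled to a depth of 1000000 after TMM normalization) in pull-downs with the label Cre+ and at 4.28, 2.39 and 5.55 in their inputs, so the fractions overlapped (log2 fold change 1.55 ± 0.861 SE, edgeR FDR 0.302, FDR being the Benjamini-Hochberg adjusted p over all genes tested). In the libraries labelled Cre- it stood at 20.8, 36.0 and 51.4 in the pull-downs and at 4.70, 1.90 and 2.88 in the inputs, a log2 fold change of 3.52 ± 0.433 (FDR 0.000466). The groups are therefore called by their labels throughout. Rpl22, the tagged gene itself, was below its inputs in all 6 pull-downs (-0.88 ± 0.479, FDR 0.293 for Cre+, and -1.38 ± 0.238, FDR 0.00311 for Cre-). The 10 neuronal markers together came to 22681 to 25060 normalized counts per pull-down for Cre+, against 22196 to 29400 per input, and to 50286 to 57857 against 25512 to 30316 for Cre-. The proprioceptor markers (7 and 8 of 8 listed) came to 827 to 1066 against 444 to 564 for Cre+, and to 1705 to 2065 against 545 to 604 for Cre-. Schwann and satellite glia markers (6 and 10 of 12 listed, Gfap and Erbb3 in neither table, Fabp7 and Kcnj10 at 0 in a library) summed to 1641 to 2267 against 2412 to 3704 for Cre+, and to 1264 to 1672 against 2777 to 4294 for Cre-. Endothelial markers (4 of 5 listed, not Cldn5) stood at 115 to 515 in the pull-downs for Cre+, above the 49.8 to 95 of the inputs, and at 20.5 to 142 against 68.8 to 93.9 for Cre-. Fibroblast markers came to 88.4 to 265 against 67.5 to 115 for Cre+ and to 33.9 to 120.3 against 88.9 to 107 for Cre-, and macrophage markers to 4.85 to 112 against 25.8 to 68.2 and to 67.9 to 99.5 against 66.3 to 139.6. For Cre+ 3 of 10 neuronal markers were called lower (median log2 fold change -0.28), and 1 proprioceptor, 1 fibroblast and 1 endothelial marker were called higher. For Cre- 5 of 10 neuronal markers (median 0.52), 6 of 8 proprioceptor markers, 1 glial and 1 macrophage marker were called higher, and 3 glial markers and 1 fibroblast marker lower. The part of these shifts in the members' values was not tested. Libraries held 8886308 to 18633365 counts in listed genes, and the pull-downs labelled Cre+ resembled each other least (Pearson's r of log values 0.682 to 0.829 between pairs, against 0.913 or more in each of the other groups).

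Many members have processed pseudogenes, which limits how reads of 50 bases, kept only where they map uniquely, can be counted. The stretches below are shown because they lie in the coding sequence of members with long shared runs or with values described later, and the same 50 bases occur in a transcript of a processed pseudogene in GENCODE M21 (GRCm38, the assembly of mm10). They are written 5′ to 3′ on the sense strand, and capitals mark the start codon where the stretch begins with it.
Hnrnpa1 (chr15:103239943-103246698, plus strand; coding bases 1 to 50): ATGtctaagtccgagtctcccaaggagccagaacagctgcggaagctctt
Hnrnpk (chr13:58391132-58403343, minus strand; coding bases 1 to 50): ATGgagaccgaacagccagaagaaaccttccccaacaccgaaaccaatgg
Hnrnpc (chr14:52073377-52104039, minus strand; coding bases 190 to 239): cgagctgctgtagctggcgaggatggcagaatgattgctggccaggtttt
Hnrnpa2b1 (chr6:51460434-51470048, minus strand; coding bases 297 to 346): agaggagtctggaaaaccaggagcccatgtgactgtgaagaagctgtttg
Srsf3 (chr17:29032660-29043372, plus strand; coding bases 1 to 50): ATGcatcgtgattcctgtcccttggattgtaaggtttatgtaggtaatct
Srsf5 (chr12:80945495-80950507, plus strand; coding bases 226 to 275): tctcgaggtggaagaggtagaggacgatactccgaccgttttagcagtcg
Srsf7 (chr17:80200080-80207369, minus strand; coding bases 38 to 87): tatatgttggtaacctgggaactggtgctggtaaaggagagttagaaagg
Snrpg (chr6:86371540-86378902, plus strand; coding bases 1 to 50): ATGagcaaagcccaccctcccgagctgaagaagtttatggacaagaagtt
For contrast, the first coding bases of Hnrnpab and Srsf1 are shown, whose coding sequences (996 and 759 bases without the stop codon) hold no 50-base stretch found in a gene elsewhere.
Hnrnpab (chr11:51600100-51606881, minus strand; coding bases 1 to 50): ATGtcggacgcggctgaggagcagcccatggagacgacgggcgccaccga
Srsf1 (chr11:88046499-88053757, plus strand; coding bases 1 to 50): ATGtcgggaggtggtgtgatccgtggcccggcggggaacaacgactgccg

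The extent of this sharing differed widely among members. Of the 50-base stretches of the transcript with the longest coding sequence, 90.5% of those of Hnrnpa3, 51.9% of Hnrnpf, 46.4% of Hnrnpa1, 34.5% of Hnrnpk, 31.5% of Srsf3 and 29.2% of Srsf5 were also present in another gene, whereas 16 of the 43 members had none. The whole coding sequence of Snrpg (228 bases) was covered by such stretches. So was a run of 1142 of 1245 coding bases in Hnrnpf, 1112 of 1137 in Hnrnpa3 and 752 of 1119 in Hnrnpa1. Hnrnpa1 shared stretches with 19 genes, 18 of them pseudogenes. Exons of other genes also overlapped the members: more than 10% of the exon bases did so in 8 members, with the largest share in Snrpf (85.4%, with Ccdc38 and 4933408J17Rik on the opposite strand), and 29.1% in Hnrnpab (with Phykpl on the opposite strand). Whether counting used the strand is not given in the sources used here, so reads in these overlaps cannot be assigned with certainty.

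The members were expressed at moderate levels. The authors' mean FPKM (fragments per kilobase of transcript, scaled to depth) had a median of 20.3 over the 20 hnRNP genes, 15.8 over 9 SR genes and 19.3 over 6 snRNP genes in the table for Cre+. In the table for Cre-, which lists more members, the medians were 20.1 over 20, 10.2 over 11 and 8.12 over 12 genes. Hnrnpab was highest in both tables (75.9 and 77.4). Srsf2, an SR protein that binds exonic enhancers, led its family with 68.7 and 65.9, and Snrpa, a protein of the U1 snRNP, led the snRNP genes with 25.3 and 23.9. No gene in the table for Cre+ had a library under 5 counts, and 35 members were listed there. The other 8 (Snrpc, Snrpd2, Snrpd3, Snrpe, Snrpf, Snrpn, Srsf9 and Srsf12) were listed for Cre- alone, so 5 of the 8 Sm genes have no value for Cre+ here. All 35 had a mean FPKM above 1 and were tested for Cre+, and 42 were tested for Cre-. Snrpn, the neuronal SmN protein from an imprinted locus, was left out with a mean FPKM of 0.578.

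Members took a smaller share of the counts in the pull-downs than in the inputs under both labels. They accounted for 0.166%, 0.138% and 0.150% of all counts in the pull-downs labelled Cre+ against 0.272%, 0.262% and 0.274% in their inputs. In the libraries labelled Cre- the shares were 0.214%, 0.177% and 0.187% against 0.259%, 0.256% and 0.253%. The fractions did not overlap under either label. On this unscaled basis the median log2 fold change of all genes was negative too, -0.36 for Cre+ and -0.27 for Cre-, with members at -0.93 and -0.48.

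In the libraries labelled Cre+, most members had lower fitted levels in the pull-down than in the input, but none passed the test. Of 35 members 28 had a negative log2 fold change and the median was -0.50, whereas over all 8947 genes tested the median was 0.08 and 47.0% were negative. The all-gene median moved to -0.12 with upper-quartile scaling, -0.36 with library size alone and 0.14 with DESeq2, and the members' median stayed 0.57 to 0.59 below it. edgeR's quasi-likelihood test called 0 of 35 members higher and 0 of 35 lower at FDR below 0.1 (DESeq2 and the exact test also called 0 higher), beside 5.39% of all genes called higher and 2.59% called lower. At an unadjusted p below 0.05 there were 6 members, all lower (Hnrnpab, Hnrnpa2b1, Hnrnpk, Hnrnpc, Snrpb and Srsf7), beside 9.66% of all genes. DESeq2 called 3 members lower (Hnrnpab, Hnrnpk and Hnrnpa2b1, 8.57%), near its 6.86% of all genes. edgeR's exact test called 1 (Hnrnpab, 2.86%) beside 5.73% of all genes, and a fit that shared its spread with the libraries labelled Cre- called 8 (22.9%) beside 13.3%. In 11 of 35 members (31.4%) all 3 pull-downs lay below all 3 inputs, as they did in 17.9% of all genes tested, and in 0 members they all lay above, as they did in 15.5% of all genes.

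**Figure D1:**
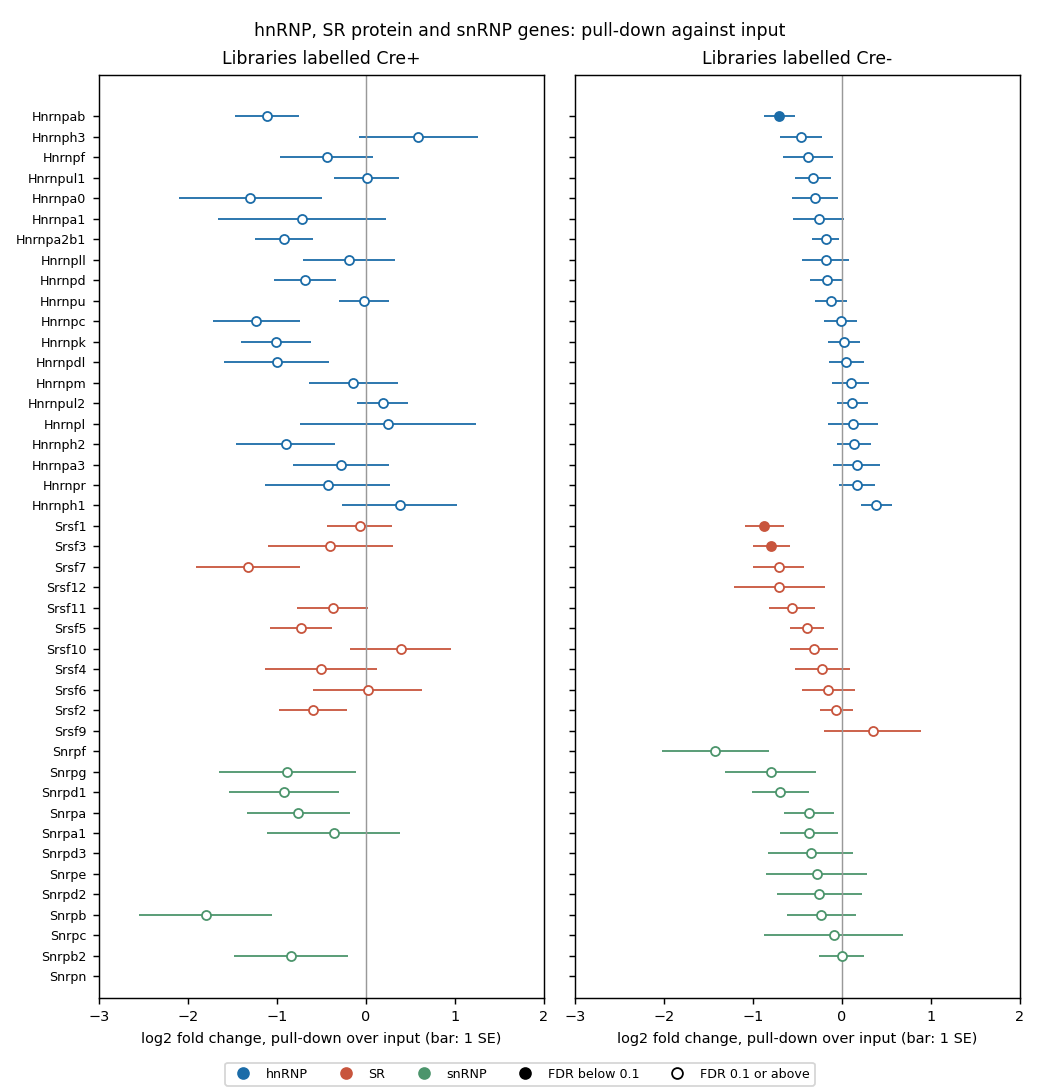
Log2 fold change of pull-down over input for each tested member (x axis, bars 1 SE) in the libraries labelled Cre+ (left, 35 members) and Cre- (right, 42 members), coloured by family, with filled symbols at FDR below 0.1. On the left no symbol is filled and bars are long, and on the right Hnrnpab, Srsf1 and Srsf3 are filled.

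Among the hnRNP genes labelled Cre+, 15 of 20 were negative, with a median of -0.43. Hnrnpab, an RNA-binding protein of the A/B type, had 67.6, 88.2 and 154 normalized counts in the pull-downs and 194, 232 and 241 in the inputs. Every pull-down was below every input, and the log2 fold change was -1.11 ± 0.356 (edgeR FDR 0.113). Hnrnpa2b1, which binds trafficking elements of mRNAs carried into neuronal processes, had 64.8, 64.4 and 100.2 in the pull-downs and 131, 153 and 151 in the inputs. Again the fractions did not overlap, with a log2 fold change of -0.92 ± 0.327 (FDR 0.137). Hnrnpk, which binds C-rich RNA, had 45.8, 46.1 and 29.7 in the pull-downs against 89.8, 72.1 and 83.4 in the inputs. Hnrnpc, which binds uridine tracts of nascent transcripts, had 52.5, 16.1 and 33.7 against 89.4, 74.6 and 76.5. Both were lower in each pull-down than in any input, with log2 fold changes of -1.01 ± 0.389 (FDR 0.160) and -1.23 ± 0.491 (FDR 0.170). The largest positive value, chosen after its values were seen, was that of Hnrnph3, with a log2 fold change of 0.59 ± 0.671 and pull-downs at 92.6, 11.0 and 65.9 on both sides of inputs at 38.0, 35.4 and 39.4.

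Among the SR genes labelled Cre+, 7 of 9 were negative, with a median of -0.40. Srsf7, an SR protein with a zinc knuckle, had 23.2, 9.63 and 20.2 normalized counts in the pull-downs and 63.9, 28.1 and 40.6 in the inputs. Srsf5 had 54.8, 52.9 and 55.0 against 80.7, 82.1 and 107. In both genes the pull-downs lay below the inputs, and the log2 fold changes were -1.32 ± 0.586 (FDR 0.208) and -0.73 ± 0.349 (FDR 0.239). Srsf1, the best known SR protein, showed no such shift, with 64.6, 63.3 and 53.2 in the pull-downs against 68.5, 57.7 and 64.2 in the inputs (log2 fold change -0.07 ± 0.362). Srsf3, which couples splicing to mRNA export, scattered most in its family. Its pull-downs read 87.8, 10.5 and 24.0 against inputs at 64.0, 48.7 and 48.3, so 1 library lay above and the other 2 below (-0.40 ± 0.702, FDR 0.767).

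All 6 snRNP genes tested for Cre+ were negative, with a median of -0.86 and a range of -1.80 to -0.36. Snrpb, which encodes the Sm proteins B and B′ and was named after its values were seen, had the most negative value of all 35 members. Its pull-downs read 3.77, 2.44 and 2.66 normalized counts against inputs at 19.2, 7.81 and 3.95, from 20 to 34 counts per pull-down (log2 fold change -1.80 ± 0.743, FDR 0.184). The 3 Sm genes listed (Snrpb, Snrpd1 and Snrpg) lay between -1.80 and -0.88, and the U1 and U2 proteins Snrpa, Snrpa1 and Snrpb2 between -0.84 and -0.36.

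The calls for Cre+ depended on single pull-downs. Without pull-down 1, 6 members were called lower (Hnrnpc, Srsf3, Srsf2, Hnrnpk, Hnrnpr and Hnrnph1), while calls over all genes rose to 7.14%. Without pull-down 2 only Hnrnpdl was called, beside 4.66% of all genes, and without pull-down 3 Hnrnpab and Hnrnpa2b1 were, beside 2.22%. These calls shared no member, and leaving out any single input left no call among the members or all genes. The SD of log2 values between replicates had a median of 0.70 over the members in these pull-downs, from 0.03 in Srsf5 to 2.25 in Hnrnpa1, and 0.24 in their inputs. Hnrnpa1, a main repressor of exon use, read 15.4, 18.9 and 0.693 normalized counts in the pull-downs, the last from 6 counts, and 25.2, 14.9 and 17.5 in the inputs.

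**Figure D2:**
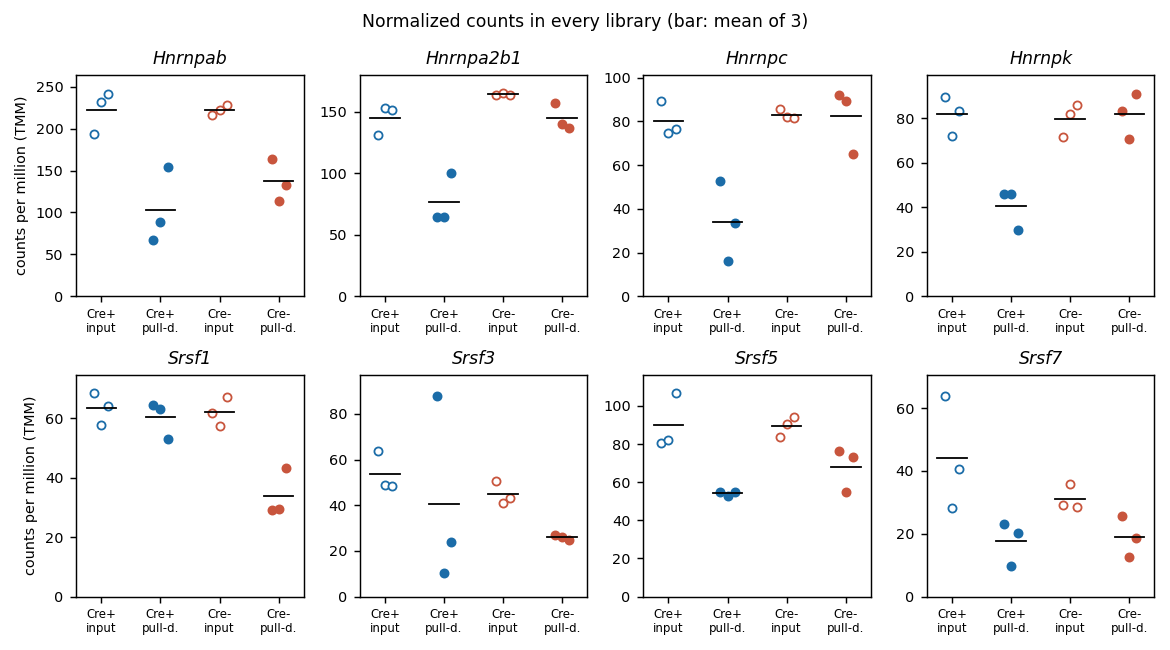
Normalized counts (scaled to a depth of 1000000 after TMM normalization, y axis from 0) of 8 members in each library, with open symbols for inputs, filled symbols for pull-downs and a bar at the mean of 3. Hnrnpk and Hnrnpc lie low in the pull-downs labelled Cre+ and level with the inputs in those labelled Cre-, and Srsf1 does the opposite.

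In the libraries labelled Cre-, 3 members fell in the pull-down, the hnRNP gene Hnrnpab and the SR genes Srsf1 and Srsf3. They were 3 of 42 members tested (7.14%), a smaller share than the 11.1% of all 11526 genes that were called lower. No member was called higher beside 13.0% of all genes (0 of 42, with 0 at an unadjusted p below 0.05, beside 16.0% of all genes, and 0 by DESeq2 or the exact test). The median log2 fold change of the members was -0.24 and that of all genes -0.04, and 31 of 42 members were negative against 52.5% of all genes. All 3 pull-downs lay below all inputs in 9 members (21.4%), close to the 18.6% of all genes, and above them in 2 (Hnrnph1 and Hnrnpr, 4.76%) beside 18.2%.

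Hnrnpab under the label Cre- read 164, 114 and 133 normalized counts in the pull-downs against 216, 222 and 228 in the inputs. The inputs were nearly level, every pull-down was below them, and the log2 fold change was -0.70 ± 0.171 (edgeR FDR 0.0180). Phykpl, whose exons overlap those of Hnrnpab, read 5.47 to 9.53 in the pull-downs and 5.10 to 8.94 in the inputs. In the pull-downs labelled Cre+ it read 44.5, 7.56 and 16.7 against 7.68, 10.5 and 7.22. These counts do not show how many reads lay in the overlap, and its part in the values of Hnrnpab was not tested. Srsf1 had 29.1, 29.5 and 43.3 in the pull-downs and 61.9, 57.3 and 67.1 in the inputs. Srsf3 had 27.1, 26.1 and 24.6 against 50.7, 40.9 and 43.1. In both genes the fractions were well apart, with log2 fold changes of -0.87 ± 0.220 (FDR 0.0206) and -0.79 ± 0.209 (FDR 0.0253). None of the 3 changes reached 2-fold. All 3 were also called by DESeq2 and the exact test. DESeq2 called Srsf7 lower too (-0.69, FDR 0.0931), for 9.52% of members beside 12.2% of all genes. The exact test called Snrpf lower too (-1.42, FDR 0.0683), for 9.52% beside 12.5%. A fit of all 12 libraries kept only Srsf1 (FDR 0.0972, 2.86% of members beside 2.41% of all genes called lower), with Hnrnpab at -0.72 (FDR 0.2) and Srsf3 at -0.82 (FDR 0.53).

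The other hnRNP genes labelled Cre- lay close to their inputs, between -0.46 (Hnrnph3) and 0.39 (Hnrnph1, ± 0.177, FDR 0.163). The family had 9 positive and 11 negative values and a median of -0.07. Hnrnpa2b1 read 157, 140.0 and 137 in the pull-downs against 164, 165 and 164 in the inputs, below them throughout but by -0.18 ± 0.150 only (FDR 0.441). Hnrnpk (83.5, 70.9 and 91.0 against 71.7, 82.1 and 86.0) and Hnrnpc (91.9, 89.5 and 65.3 against 85.5, 81.8 and 81.4) overlapped, with log2 fold changes of 0.03 ± 0.179 and -0.01 ± 0.186, and the sign turned for Hnrnpk with library size alone (-0.20) and for Hnrnpc with DESeq2 (0.01). Hnrnpr, which associates with axonal β-actin mRNA, read 41.0, 36.0 and 37.6 against 33.3, 35.3 and 33.1 (0.17 ± 0.201, FDR 0.608).

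The SR genes labelled Cre- lay lower, with 10 of 11 negative and a median of -0.39. Besides Srsf1 and Srsf3, Srsf5 and Srsf7 had all pull-downs below all inputs. Srsf5 read 76.2, 55.0 and 73.4 against 83.6, 90.4 and 94.0 (-0.39 ± 0.186, FDR 0.180), and Srsf7 read 25.7, 12.6 and 18.8 against 29.2, 35.8 and 28.4 (-0.71 ± 0.291, FDR 0.121). Srsf9 was the positive value, at 0.35 ± 0.546 (FDR 0.714). edgeR's quasi-likelihood test called none of the 11 snRNP genes. Its exact test called Snrpf lower (FDR 0.0683), beside 12.5% of all genes. With library size alone Snrpf (FDR 0.0794) and Snrpd1 (FDR 0.066) were called lower, beside 20.5% of all genes. Of the snRNP genes 10 were negative, and all 7 Sm genes tested lay between -1.42 and -0.23. Snrpf read 1.39, 0.813 and 1.12 normalized counts in the pull-downs and 3.43, 2.31 and 3.26 in the inputs, from 12 to 43 counts per library (-1.42 ± 0.604, FDR 0.134), with the overlap of its exons given above. Without pull-down 1, 8 members were called lower for Cre- (also Srsf11, Srsf7, Hnrnpf, Hnrnph3 and Srsf5), a share of 19.0% beside 15.0% of all genes, and leaving out any other library left the count at 3.

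**Figure D3:**
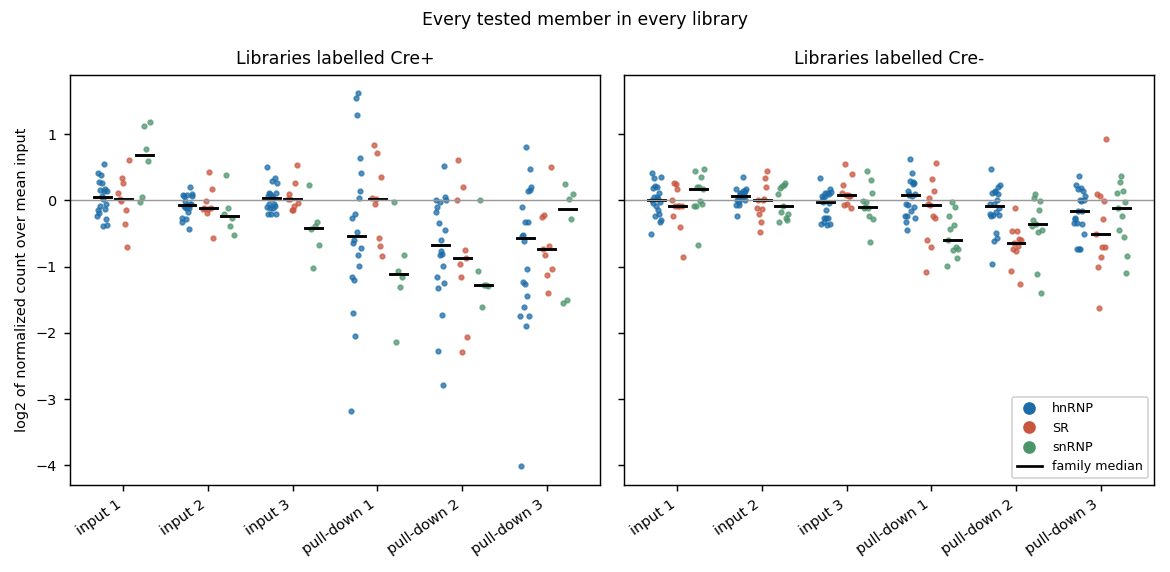
Log2 of the normalized count over the mean input (y axis) for every tested member in every library (points, coloured by family; black bars mark family medians), labelled Cre+ on the left and Cre- on the right. Points scatter over a range of -4.01 to 1.62 in the pull-downs labelled Cre+ and over -1.63 to 0.93 in those labelled Cre-.

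Family by family, the libraries did not move as a block. In the pull-downs labelled Cre+ the median log2 value over the mean input was -0.54, -0.68 and -0.57 for the hnRNP genes, 0.02, -0.87 and -0.74 for the SR genes and -1.11, -1.28 and -0.13 for the snRNP genes. The median thus lay near the mean input for SR genes of pull-down 1 and snRNP genes of pull-down 3, but single genes spread around it. SR genes of pull-down 1 lay between -0.84 (Srsf7) and 0.84 (Srsf10), and snRNP genes of pull-down 3 between -1.55 (Snrpa) and 0.25 (Snrpa1). In the pull-downs labelled Cre- the hnRNP medians were 0.07, -0.09 and -0.16, the SR medians -0.07, -0.64 and -0.51 and the snRNP medians -0.60, -0.36 and -0.11. In each of the 6 pull-downs the median over all members was below the mean input, from -0.57 to -0.82 for Cre+ and from -0.10 to -0.26 for Cre-, whereas the median over all genes lay between -0.06 and 0.00.

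Whether enrichment differed between the labels was tested as an interaction over 8954 genes and 12 libraries. None of 35 members was called (0 higher beside 2.26% of all genes, 0 lower beside 2.05%), 3 had an unadjusted p below 0.05, all negative, beside 8.43% of all genes, and DESeq2 called 1 lower, Hnrnpk, beside 5.23%. Exchanging the labels of pull-downs and inputs together would turn the sign of every difference given here. Exchanging those of the pull-downs alone would change the fold changes under each label as well, and was not run. The median difference, Cre+ minus Cre-, was -0.24 over the members and 0.13 over all genes. With upper-quartile scaling these medians were -0.39 and -0.05, and with library size alone -0.47 and -0.11. Hnrnpk had the smallest FDR of the members, with a difference of -1.01 ± 0.376 on the log2 scale (edgeR FDR 0.173), followed by Hnrnpc with -1.19 ± 0.497 (FDR 0.210) and Hnrnpa2b1 with -0.70 ± 0.320 (FDR 0.246). Srsf1 differed the other way, by 0.83 ± 0.390 (FDR 0.257). Hnrnpab, called by the quasi-likelihood test for Cre- alone, differed by -0.37 ± 0.395 (FDR 0.630), and its log2 fold change was the more negative for Cre+. DESeq2 and the exact test called it under both labels. Leaving out a Cre+ pull-down raised the calls over all genes as well as those of members. Without pull-down 1, 4 members were called lower (Hnrnph1, Hnrnpc, Hnrnpr and Hnrnpk, 11.4%) beside 7.52% of all genes. Without pull-down 2, Hnrnph3 was called higher (2.86%) beside 8.38% of all genes and Hnrnpdl, Hnrnpa0 and Hnrnpk lower (8.57%) beside 8.09%, and without pull-down 3 Hnrnpa2b1 was called lower (2.86%) beside 5.45%.

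Both labels were set side by side in the 35 members tested under both. The log2 fold change was negative under both in 21 members (60.0%), beside 30.2% of 8830 genes, and positive under both in 3 (Hnrnph1, Hnrnpl and Hnrnpul2, 8.57%), beside 31.9% of genes. The difference between these shares was not tested. In 4 members (Hnrnpab, Hnrnpa2b1, Srsf5 and Srsf7) every pull-down was below every input under both labels, as in 6.01% of the 8830 genes. Across the 35 members the fold changes of both labels had a Spearman's rho of 0.17, and of 0.32 across all 8830 genes, where each point is a gene measured in the same libraries as the others.

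**Figure D4:**
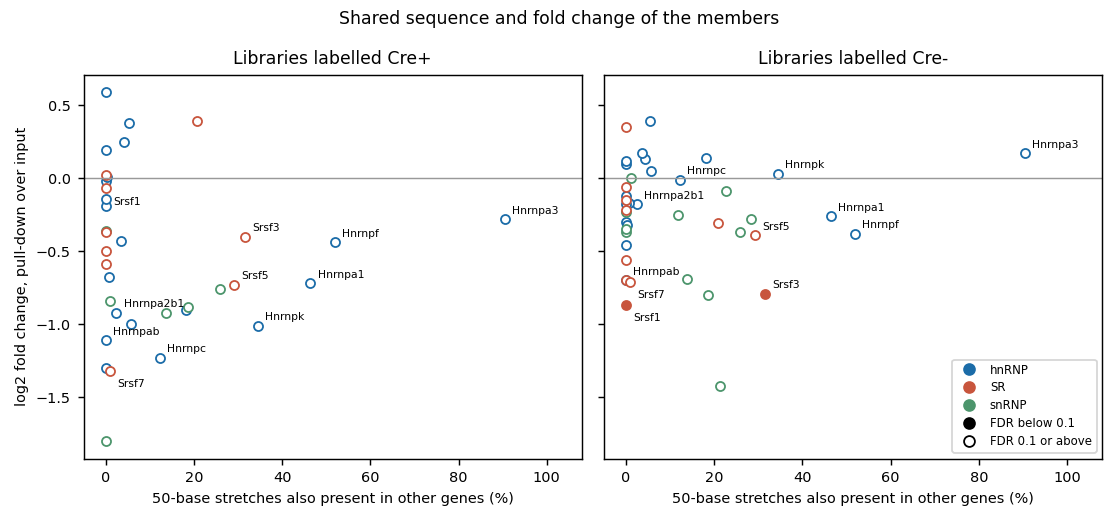
Log2 fold change of pull-down over input (y axis) against the percent of a member's 50-base stretches that also occur in other genes (x axis), labelled Cre+ on the left and Cre- on the right. Negative values are found at 0% (Srsf1, Hnrnpab) as well as at 31.5% (Srsf3) and 46.4% (Hnrnpa1).

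Members with low values were found with and without shared sequence. Hnrnpab and Srsf1, both called for Cre-, had no such stretch in the transcript used, while Srsf3 had 31.5%. Spearman's rho between the fold change and the share of such stretches was -0.23 over 35 members for Cre+ and -0.00 over 42 for Cre-, and between the fold change and transcript length 0.30 and 0.33, over genes that share all libraries.

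Other genes of splicing, listed by complex, were set beside the members. The Snrnp-symbol proteins, LSm proteins, SF3 and U2AF factors, PRPF and tri-snRNP proteins, SR kinases and SR-related proteins, further hnRNP-type proteins, SMN complex and tissue-restricted regulators held 149 genes, of which 123 were tested for Cre+ (2 higher, 0 lower, 17 at p below 0.05, median -0.01) and 142 for Cre- (11 higher, 17 lower, 37 at p below 0.05, median -0.09). The calls lie near or below the shares of all genes, which were 5.39% higher and 2.59% lower for Cre+ and 13.0% higher and 11.1% lower for Cre-. At an unadjusted p below 0.05, 8 were lower for Cre+, beside 9.66% of all genes, and 9 higher. For Cre- 14 were higher, beside 16.0% of all genes, and 23 lower. Shares of all genes at this threshold were not counted for the opposite directions. The LSm proteins, many of which form rings like those of the Sm proteins, had the lowest medians of these lists, -0.60 for Cre+ and -0.77 for Cre-. Of 11 tested for Cre-, 4 fell (Lsm1, Lsm2, Lsm10 and Lsm12), beside the 11.1% of all genes. Lsm2 read 12.8, 12.7 and 14.0 in the pull-downs labelled Cre- against 38.1, 30.5 and 46.2 in the inputs (-1.54 ± 0.250, FDR 0.00226). Lsm1, of the cytoplasmic ring that acts in mRNA decay, fell for Cre- too (-1.24 ± 0.345, FDR 0.032). For Cre+ it read 3.77, 0.61 and 0.924 against 18, 8.26 and 6.05 (-2.59 ± 0.869, FDR 0.121), and Lsm8, of the U6 ring, read 3.66, 1.83 and 2.08 against 9.95, 11.4 and 10.2 (-2.05 ± 0.626, FDR 0.102). In neither gene did the fractions overlap, and neither passed the test for Cre+. Snrnp25, of the minor spliceosome, also fell for Cre- (-1.63 ± 0.494, FDR 0.0438), whereas Snrnp200, the helicase of the U5 snRNP, overlapped its inputs (0.39 ± 0.197, FDR 0.198). Snrnp70, which binds U1 snRNA, read 137, 56.3 and 66 in the pull-downs labelled Cre+ against 31.4, 35.7 and 29.7 (1.42 ± 0.459, FDR 0.114), and Snrnp48, of the minor spliceosome, 2.22, 19.6 and 7.27 against 47.9, 40.3 and 32.1 (-2.05 ± 0.779, FDR 0.157).

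Calls in the SR-related and SF3 lists went both ways for Cre-. In the SR-related list 4 of 27 rose and 2 fell, beside 13.0% and 11.1% of all genes, Rnps1 (23.8 to 26.0 in the pull-downs against 45.3 to 56.9 in the inputs, FDR 0.0081) and Luc7l3 (-0.60 ± 0.188, FDR 0.0484). In the SF3 list Sf3b1 rose (0.61 ± 0.199, FDR 0.0592) and Phf5a fell (-0.83 ± 0.269, FDR 0.0576). The SF3 genes with the smallest p for Cre+ did not pass the test, Sf3b4 at -1.40 ± 0.587 (FDR 0.191) and Sf3a2 with pull-downs at 30.1, 17.8 and 26.1 against 12, 12.8 and 12.2 (FDR 0.302). Srrm2, a very large SR-related protein of nuclear speckles, read 3322, 1297 and 1389.8 normalized counts in the pull-downs labelled Cre+ against 542, 758 and 622 in the inputs and was called higher (1.64 ± 0.386, FDR 0.0636). It also rose for Cre-, from 582, 825 and 650.1 in the inputs to 1424, 1367 and 1121 in the pull-downs (0.93 ± 0.167, FDR 0.00396). Son, another large protein of the speckles, read 564, 222 and 247 for Cre+ against 86.9, 159 and 177 (1.29 ± 0.429, FDR 0.121). Prpf8, the core scaffold of the U5 snRNP, rose for Cre- (0.99 ± 0.215, FDR 0.0105). Its pull-downs labelled Cre+ read 1254, 240.1 and 260.3 against inputs at 80.9, 173 and 156 (2.10 ± 0.633, FDR 0.101), so pull-down 1 stood far above the other two. Prpf19, a ubiquitin ligase of the spliceosome, had 158, 172 and 143 against 89.1, 94.1 and 96.6 for Cre- (0.76 ± 0.159, FDR 0.0086). Cd2bp2, a U5 protein, had the second smallest p of that list for Cre+ (-1.81 ± 0.763, FDR 0.191). In the PRPF and tri-snRNP list 4 of 24 genes rose for Cre- (Prpf4b, Prpf6, Prpf8 and Prpf19, 16.7%), close to the 13.0% of all genes, and 0 fell.

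Relatives of the members with other symbols varied. Of 22 hnRNP-type genes, 4 fell for Cre- beside the 11.1% of all genes (Ptbp3, Pcbp2, Rbm3 and Ybx1), led by the polypyrimidine tract binding protein Ptbp3 (-0.86 ± 0.179, FDR 0.00839). For Cre+ the smallest p values of this list were those of Ybx1 (-1.46 ± 0.639, FDR 0.203) and Ptbp1 (1.15 ± 0.629, FDR 0.298). For the SMN complex, which loads Sm rings onto snRNA, edgeR called 0 of 10 listed genes for Cre+ and 0 of 14 for Cre-. At an unadjusted p below 0.05 there were 2 for Cre+, lower as were 9.66% of all genes. For Cre- there was 1, also lower, with no share of all genes counted. Smn1 stood at -2.25 ± 0.748 (FDR 0.12) and Clns1a at -1.31 ± 0.537 (FDR 0.18) for Cre+, and Coil at -0.52 ± 0.226 (FDR 0.141) and Strap at -0.38 ± 0.177 (FDR 0.167) for Cre-. Nova2, a neuronal splicing regulator, read 92.8, 83.3 and 94.3 in the pull-downs labelled Cre+ against 16.8, 21.4 and 28.0 in the inputs and was higher in both comparisons (2.03 ± 0.413, FDR 0.0468 for Cre+, and 0.64 ± 0.230, FDR 0.0835 for Cre-). Of 21 tissue-restricted regulators tested for Cre-, 5 fell (Celf1, Celf2, Celf3, Celf6 and Rbfox3) and 2 rose (Nova1 and Nova2), beside 11.1% and 13.0% of all genes. Rbfox3, the neuronal nuclear antigen NeuN, had 176, 187 and 166 in the pull-downs and 309, 310.5 and 274 in the inputs (-0.76 ± 0.147, FDR 0.00583), and Celf6 had a log2 fold change of -1.26 ± 0.335 (FDR 0.0257). Mbnl1 stood at 0.89 ± 0.272 for Cre+ (FDR 0.102).

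The difference between the labels was called in 2 of 125 genes of these lists, both higher, beside 2.26% of all genes. They were Ptbp3, with a difference of 1.17 ± 0.331 (FDR 0.0895), and Rbfox3, with 1.02 ± 0.261 (FDR 0.0724). The other genes with the smallest p per list did not pass the test. Positive differences among them were those of Clk1 (2.17, FDR 0.18), Nova2 (1.43, FDR 0.102), Sf3a2 (1.43, FDR 0.227), Lsm6 (1.24, FDR 0.377), Snrnp70 (1.23, FDR 0.197), Srrm2 (0.74, FDR 0.354) and Pcbp3 (0.52, FDR 0.268). Negative differences were those of Cd2bp2 (-2.14, FDR 0.169), Snrnp48 (-1.76, FDR 0.243), Smn1 (-1.72, FDR 0.256), Lsm8 (-1.67, FDR 0.206), Sf3b4 (-1.31, FDR 0.232), Prpf6 (-1.14, FDR 0.271) and Clns1a (-1.08, FDR 0.259).

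**Figure D5:**
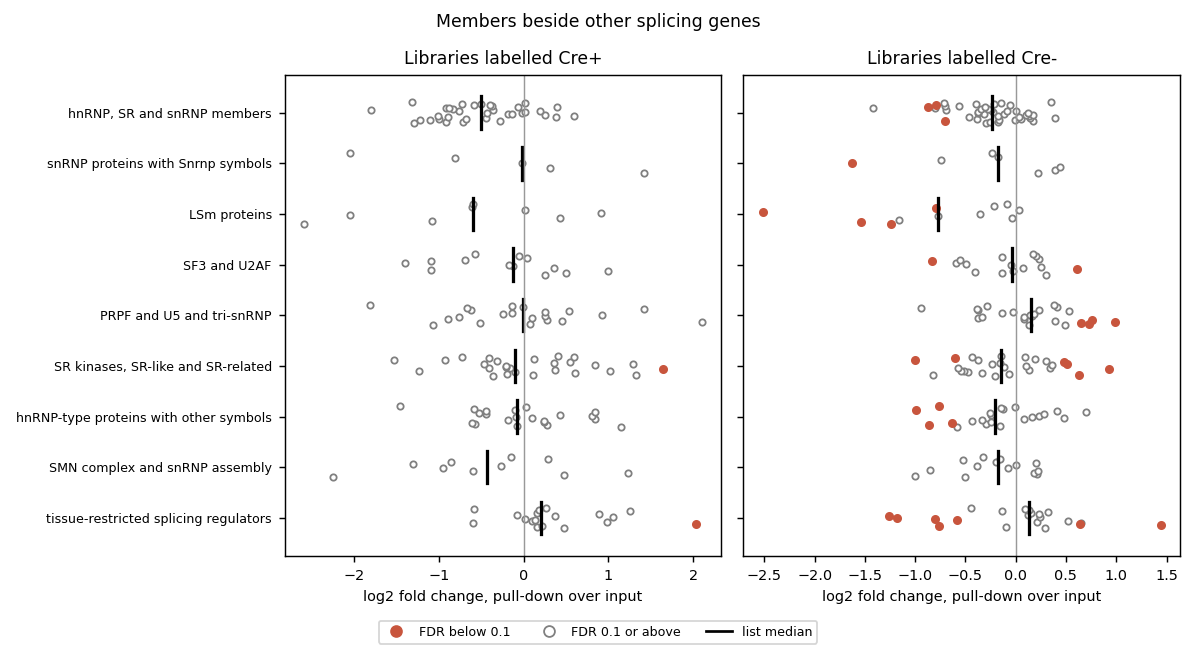
Log2 fold change of pull-down over input (x axis) for the members and for 8 lists of other splicing genes (rows), labelled Cre+ on the left and Cre- on the right, with filled symbols at FDR below 0.1 and a black bar at each list's median. LSm proteins lie lowest in both panels, and the members' median is -0.50 on the left and -0.24 on the right.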

How the data were processed

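The deposited tables hold counts per gene and library and a mean FPKM per gene. Per the labels and the methods of the study, the authors prepared 50-base paired-end reads (CASAVA 1.8.2 in the submitters' processing notes), aligned them to mm10 with STAR, and made the counts with HTSeq on refSeq genes from uniquely mapped reads. The authors' mean FPKM was used as the filter (above 1) and for levels. Their own fold changes and p-values stand in the same tables and were not used, nor were 18 further per-sample columns. The 3 pull-down columns used for Cre+ bear names that, punctuation aside, are titles of Cre- samples. They were taken as Cre+ because the descriptions of the Cre+ samples point to the table that holds them, but only as a group, and their numbers just tell libraries apart.

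Counts were normalized by TMM and tested with edgeR 4.0.16 (quasi-likelihood, R 4.3.3) in 3 comparisons: pull-down against input for each label, and their interaction. P-values were adjusted by Benjamini-Hochberg over all genes tested, and calls were made at FDR below 0.1 with no fold limit. On simulated data the test for Cre+ recovered 1 of 88 genes changed by 1 on the log2 scale, and 15 of 112 changed by 2. For Cre- it recovered 29 of 112 and 86 of 88, and for the difference 1 of 95 and 16 of 105. The simulation gave all genes and libraries of a comparison 1 common dispersion (0.309 for Cre+, 0.098 for Cre-, 0.192 for the difference). Real pull-downs labelled Cre+ spread more than their inputs, with a median SD of log2 values of 0.79 against 0.32 over all genes. Recovery in the real libraries may thus differ. A member without a call for Cre+ or the difference may still have changed. Values in every library are given for members called, for the 4 with the smallest p for the difference, and for those with pull-downs on 1 side of the inputs under both labels. Other splicing genes were named by the 2 smallest p per list and comparison, and any further gene after its values were seen. Members and lists were chosen with earlier results of these data known, so lists are described without a test. Alternatives were DESeq2 1.42.0, other scalings, filters, thresholds and tests, a replicate block for Cre-, and leaving out each library. Libraries held 8886308 to 18633365 counts, and p-values cover the spread between 3 pools per group. Positions and shared 50-base stretches come from GENCODE M21, for the transcript with the longest coding sequence.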

Additional observations from a re-analysis of the deposited data

How the results depend on the processing

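The count of members called lower for Cre+ was 0, and became 3 with DESeq2, 5 with library size alone, 1 with edgeR's exact test and 8 with all 12 libraries in one fit, and ranged from 0 to 6 when single libraries were left out. For Cre- it was 3, and became 0 with a 2-fold limit, 4 with DESeq2 and 4 with edgeR's exact test. It became 11 with library size alone and 1 (Srsf1) with all 12 libraries in one fit. When single libraries were left out it ranged from 3 to 8. The calls over all genes moved as well. For Cre+ they went from 232 lower to 614 with DESeq2, 513 with the exact test and 1189 with all 12 libraries. Leaving out single libraries gave 0 to 639 lower for Cre+ and 798 to 1733 for Cre-. For Cre- they went from 1278 lower to 1401 with DESeq2, 1439 with the exact test and 216 with all 12 libraries. For the difference, DESeq2 called 1 lower (468 over all genes), and leaving out single libraries gave 0 to 4 lower and 0 to 1 higher (30 to 724 lower and 11 to 750 higher over all genes). Apart from the fold limit, which itself removes smaller changes, the cause was not tested. No member was called higher for either label under any setting run. The median of the members was negative in every setting, from -0.93 to -0.40 for Cre+, from -0.48 to -0.19 for Cre- and from -0.47 to -0.19 for the difference. Over all genes, 482 were called higher and 232 lower for Cre+, against 251 and 271 with upper-quartile scaling and 205 and 745 with library size alone. For Cre- the split was 1494 to 1278, against 924 to 2364 with library size alone. For the difference it was 202 to 184, against 89 to 215 and 76 to 287. The replicate block for Cre- called 4 members lower (also Srsf11, 9.52% beside 12.0% of all genes) and lost none. For Cre-, the deviation of each gene's log value from its group mean was correlated between pull-downs and inputs. Same-numbered libraries gave r of 0.0654, 0.0274 and 0.121, and each pull-down correlated best with the input of its own number. Each input came from a pull-down's lysate, but the labels do not say that equal numbers mark the same lysate. No paired analysis was possible for Cre+ or the difference because the numbers in those pull-down columns could not be tied to samples. Depth limits Snrpc and the Sm genes other than Snrpd1 most, since none of them exceeded 101 counts in any library labelled Cre-.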
